A study of Arabidopsis thaliana with 39 samples.

Results

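Aliphatic glucosinolate synthesis was followed through 10 genes of *Arabidopsis thaliana*, out of 37184 genes in the count files. They are *BCAT4* (AT3G19710), *MAM1* (AT5G23010), *MAM3* (AT5G23020), *CYP79F1* (AT1G16410), *CYP79F2* (AT1G16400), *CYP83A1* (AT4G13770), *UGT74C1* (AT2G31790), *SOT16* (AT1G74100), *SOT17* (AT1G18590) and *SOT18* (AT1G74090), and all 10 were in the files. The genes were chosen by their counts in these same libraries, each mutant against the Col-0 of its set. Their levels, fold changes and calls in those comparisons therefore only describe these libraries, and a call of a listed gene is no independent evidence.

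What was sequenced is small RNA, in 39 libraries of 13 groups with 3 libraries each, from whole plants. The mRNA of these genes was not measured. Set 1 held wild-type Col-0 (1), *lsm1a lsm1b* (decapping activators), *ncb-4* (coilin, the scaffold of Cajal bodies), *upf1-5* and *upf3-1* (nonsense-mediated decay). Set 2 held Col-0 (2), *ahg2-1* and *ccr4a* (poly(A) shortening), *pab2 pab4* (poly(A)-binding proteins), *fy-2* and *rsr1-2* (mRNA 3′ end processing). Both sets were 14 day-old seedlings on MS medium. Set 3 held *cstf64-2*, a mutant in a subunit of the cleavage and polyadenylation complex, and Col-0 (3), both from 21 day-old plants on soil. *cstf64-2* plants are sterile, and homozygotes were picked by their appearance. Each mutant group was 1 line. Col-0 (3) was grown alongside *cstf64-2* but deposited earlier. No source says whether the libraries of these 2 groups were prepared and sequenced together. The 3 libraries of a group are described as biological replicates, and no source says how many plants went into each. The p-values measure the spread between these libraries. In bulk tissue, fewer cells of a type and less RNA per cell cannot be told apart.

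Glucosinolates are sulfur-rich defence compounds of the cabbage family, which myrosinases split into toxic products when tissue is crushed. The aliphatic ones are made from methionine. Its side chain is first lengthened (BCAT4, which removes the amino group, then the methylthioalkylmalate synthases MAM1 and MAM3). The core structure follows, through oximes made by CYP79F1 and CYP79F2, oxidation by CYP83A1, glucose addition by UGT74C1 and a final sulfation by SOT16, SOT17 and SOT18. Small RNA from a protein-coding gene can be a degradation fragment of its mRNA or an siRNA cut from double-stranded RNA, and counts over all lengths can hold both.

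The *SOT18* and *SOT16* genes lie tail to tail on chromosome 1. In the TAIR10.1 annotation *SOT18* runs from 27862814 to 27864193 on the plus strand and *SOT16* from 27864345 to 27865694 on the minus strand, each with 1 exon. Only 151 bases separate their 3′ ends. That stretch is shown because it is all that lies between the 3′ ends of the genes the results turn on. It is printed on the plus strand, from chr1:27864194-27864344, all in lower case:
between SOT18 and SOT16: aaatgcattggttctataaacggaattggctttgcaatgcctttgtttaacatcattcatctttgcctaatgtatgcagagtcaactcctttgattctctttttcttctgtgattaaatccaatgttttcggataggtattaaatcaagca
The stretch had 33.8% G and C. The polyadenylation signal AATAAA, searched on both strands, was not in these letters. It was in 124 of 455 gaps of 100 to 200 bp between convergent protein-coding genes of the genome (27.3%). The search covered only the gaps, so a signal inside either gene would not have been found. Nothing is read from it about the signals of *SOT18* and *SOT16*.

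Sequences that genes share bear on the counts, since a read that fits 2 genes cannot be assigned to 1 of them. The 3 sulfotransferase genes have a coding stretch in common, whose 26 bases found in all 3 are in capitals below, each run printed in the direction of its gene:
SOT16 and SOT18, 32 bases: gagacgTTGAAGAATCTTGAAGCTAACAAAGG
SOT16 and SOT17, 29 bases: TTGAAGAATCTTGAAGCTAACAAAGGtga
SOT17 and SOT18, 26 bases: TTGAAGAATCTTGAAGCTAACAAAGG
In *SOT16* the first run lies at chr1:27864658-27864689, and in *SOT18* at chr1:27863855-27863886. Of the 21-base words in the exons of *SOT16*, 1.65% were also in *SOT18*. The closest pair of the list was *CYP79F1* and *CYP79F2*, neighbours on chromosome 1, where 9.81% of the words of *CYP79F1* and 16.2% of those of *CYP79F2* were shared. Their longest common run, of 100 bases, is printed because reads from it are uncertain between them. It lies in the coding part of *CYP79F1* at chr1:5609966-5610065:
CYP79F1 and CYP79F2: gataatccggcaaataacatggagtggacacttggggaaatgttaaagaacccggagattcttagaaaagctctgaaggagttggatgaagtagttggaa
*MAM1* and *MAM3* shared 47 words. No gene of the list had the same counts as another gene throughout a set.

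The libraries of set 1 held 6437260 to 7968503 reads on genes, those of set 2 held 7767365 to 9151932 and those of set 3 held 2015212 to 2323991. Of these reads 6.52 to 10.1%, 6.38 to 8.24% and 18.1 to 22.2% were on protein-coding genes. Levels were not compared between set 3 and the others. All 4 leaf markers (*RBCS1A*, *CAB2*, *CAB3* and *RCA*) had reads in every group, and 2 to 5 of 6 root markers and 0 to 3 of 3 flower markers did. The reads of the mutated genes do not test the genotypes, since a mutated gene can still give small RNA. *PAB2* had 4 to 9 reads in *pab2 pab4* and 86 to 96 in Col-0 (2), while *FY* had 23 to 56 reads in *fy-2* and 1 to 3 in Col-0 (2).

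The levels of the 10 genes in wild type were low and unequal. Per kb of exon and M reads on genes, *SOT18* was highest in each wild type, at 2.73 in Col-0 (1), 2.24 ± 0.577 (SD, n = 3) in Col-0 (2) and 24.4 in Col-0 (3). In Col-0 (2) *MAM1* followed at 1.76 ± 0.193 (SD, n = 3), then *SOT16* at 1.21, *CYP83A1* at 1.06, *BCAT4* at 0.579, *MAM3* at 0.376, *CYP79F2* at 0.328, *CYP79F1* at 0.294, *SOT17* at 0.128 and *UGT74C1* at 0.0925. Neighbours in that order overlapped in their libraries, except *MAM1* and *SOT16*, where the lowest *MAM1* library (1.55) was just above the highest of *SOT16* (1.51). Over the 27444 protein-coding genes the median was 0.12 in Col-0 (2), and 93.5% of them were below *SOT18*. In read counts, *SOT18* had 18, 30 and 33 reads in Col-0 (2) and *SOT17* had 1, 0 and 4. With so few reads, a change in 4 of the 10 genes, *MAM3*, *CYP79F2*, *UGT74C1* and *SOT17*, was not tested in the comparisons of each mutant with its Col-0, as they did not pass edgeR's filter on low counts. *CYP79F1*, *BCAT4* and *CYP83A1* passed the filter in only some of these comparisons.

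Small RNAs from *SOT18* and *SOT16* rose together in *cstf64-2*. *SOT18*, a sulfotransferase that prefers aliphatic substrates, had 479, 509 and 483 reads in *cstf64-2* and 78, 80 and 54 in Col-0 (3). *SOT16*, which prefers indolic ones, had 386, 404 and 434 reads against 38, 36 and 41. The groups were far apart for both genes. After TMM scaling *SOT18* stood at 205.5 ± 11.6 RPM (reads per M on genes, SD, n = 3) and 34.6 ± 6.39 RPM in Col-0 (3), a log2FC of 2.57 ± 0.126 (SE). *SOT16* stood at 171.3 ± 17.5 and 18.9 ± 1.66 RPM, a log2FC of 3.18 ± 0.128 (SE). Both passed the thresholds for a call, an adjusted p-value under 0.05 and a log2FC over 1 in size. They were 2 of the 4 listed genes that passed the filter, in a comparison where 13.6% of 9207 genes were called up and 3.3% down. *SOT18* gave 54.6% of the reads of the pair in *cstf64-2* (95% exact binomial interval 52.7 to 56.5%, counting error only) and 64.8% in Col-0 (3) (59.4 to 70.0%). By library the share was 52.7 to 55.8% and 56.8 to 69.0%.

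**Figure D1:**
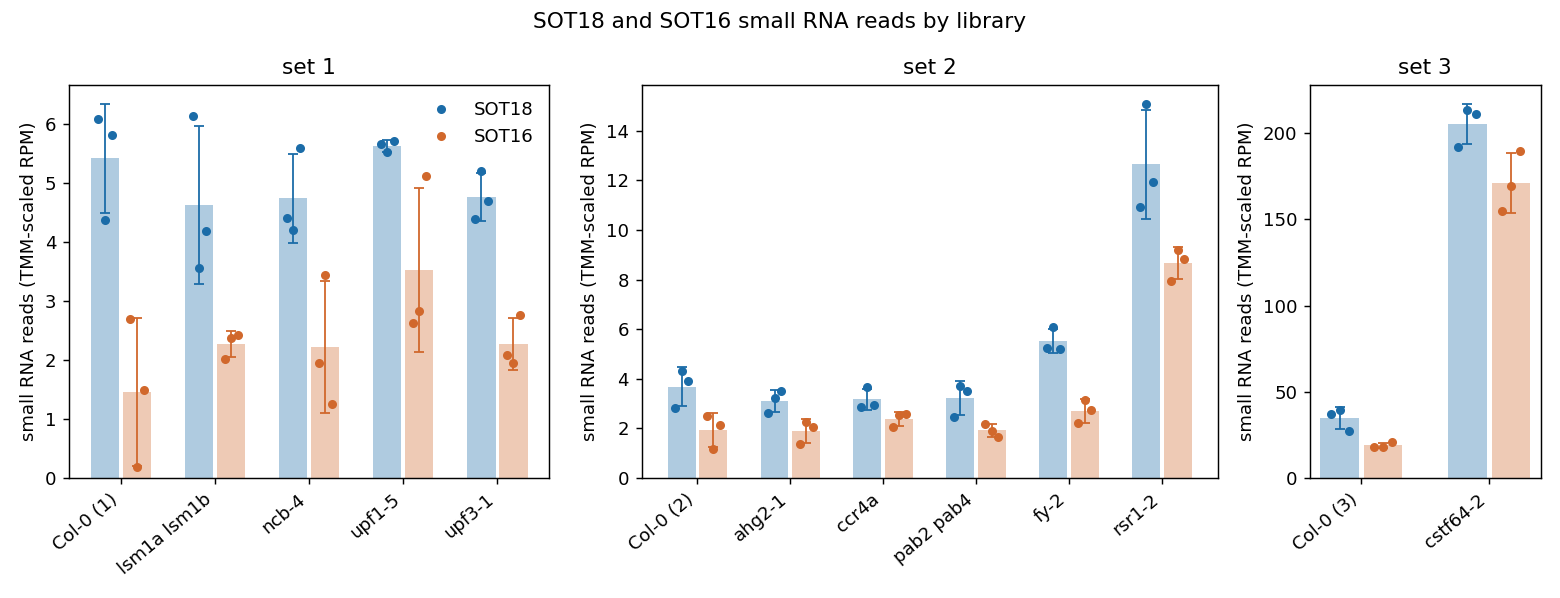
Small RNA reads of *SOT18* (blue) and *SOT16* (orange) in TMM-scaled RPM for each group of the 3 sets, with bars at the mean, error bars of 1 SD (n = 3) and points for the libraries. Scales differ between panels, and the *cstf64-2* and *rsr1-2* libraries lie above those of their Col-0 for both genes.

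Of the other 8 genes only *CYP83A1* and *MAM1* passed the filter in *cstf64-2*, and neither was called. The rest were not tested there. Together the 8 genes had 61, 39 and 76 reads in *cstf64-2* and 33, 26 and 57 in Col-0 (3), and these ranges overlap. *SOT17*, the sulfotransferase that has no convergent neighbour close by, had 5, 3 and 6 reads against 1, 4 and 3. *CYP83A1*, with 17, 10 and 17 reads against 12, 6 and 16, had a log2FC of 0.14 ± 0.421 (SE), and *MAM1*, with 18, 9 and 15 against 7, 3 and 14, one of 0.56 ± 0.505 (SE). Leaf markers summed to 219 to 407 RPM in *cstf64-2* and 199 to 491 in Col-0 (3), so they overlapped.

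A convergent protein-coding gene within 400 bp was annotated for 5 of the 10 genes, and for 31.1% of 27444 protein-coding genes. Besides *SOT18* and *SOT16* these were *CYP79F1*, *UGT74C1* and *BCAT4*. *CYP79F1* (chromosome 1, 5608682 to 5612064) ends 85 bp from the end of *MC8*, *UGT74C1* (chromosome 2, 13518199 to 13520364) overlaps AT2G31800 by 40 bp and holds the antisense lncRNA gene AT2G08470 (13519805 to 13520069), and *BCAT4* (chromosome 3, 6846969 to 6849582) overlaps *IKU2* by 307 bp. *CYP79F1* had 4, 6 and 9 reads in *cstf64-2* against 4, 8 and 3 in Col-0 (3), and *BCAT4* had 6, 2 and 6 against 1, 2 and 8. Neither passed the filter in this comparison, so neither was tested. *UGT74C1* had 9, 5 and 14 reads against 3, 2 and 6, a ratio of the summed reads of 2.17 (95% exact conditional interval 1.047 to 4.83, counting error only), but its libraries overlap. The partners were near 0, with 2 reads in *cstf64-2* and 0 in Col-0 (3) for *MC8*, and 3 and 0 for *IKU2*, while AT2G31800 had 18 and 19. AT2G08470 had 0 in both. Reads within the overlap of 2 genes may have gone uncounted, and without the strand, reads from a gene and from an antisense transcript cannot be told apart.

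**Figure D2:**
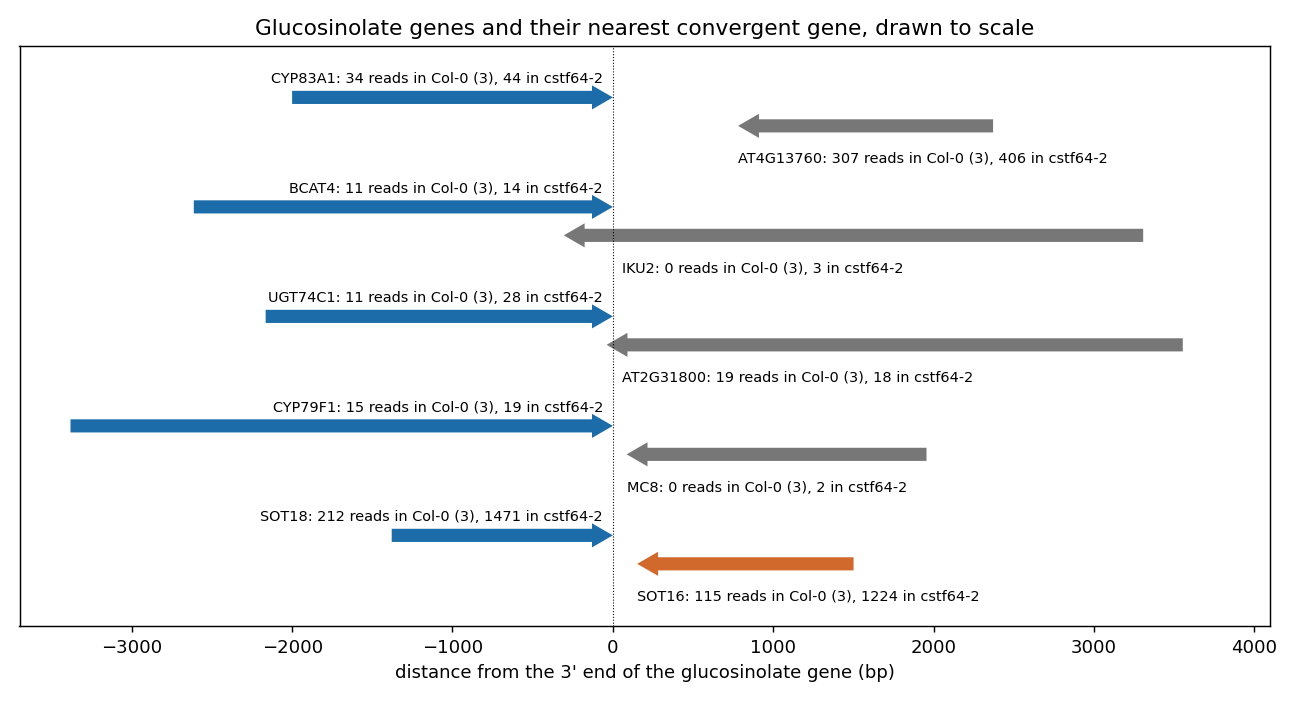
Positions of 5 listed genes (arrows on top, blue) and *SOT16* (orange) or another nearest convergent gene (grey), as distance in bp from the 3′ end of the upper gene, with summed reads of 3 libraries in Col-0 (3) and *cstf64-2*. Reads of *SOT18* went from 212 to 1471 and those of *SOT16* from 115 to 1224.

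*SOT18* and *SOT16* were also the listed genes called in *rsr1-2*. *SOT18* had 99, 159 and 104 reads against 18, 30 and 33 in Col-0 (2), or 12.6 ± 2.18 and 3.68 ± 0.78 RPM (SD, n = 3), a log2FC of 1.74 ± 0.216 (SE). *SOT16* had 72, 97 and 77 against 16, 8 and 18, or 8.66 ± 0.653 and 1.93 ± 0.694 RPM (SD, n = 3), a log2FC of 2.13 ± 0.262 (SE). Both genes were called up, among 4 of the list that passed the filter, where 0.915% of 9613 genes were called up and 1.53% down. Both calls held without any single library, with DESeq2 and against Col-0 (1). The difference between the rise in *cstf64-2* and that in *rsr1-2* was not tested, as the sets differ in age, medium and counting.

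The other 8 genes together were lower in *rsr1-2*, at 6.96 ± 1.06 RPM against 10.9 ± 0.846 in Col-0 (2) (SD, n = 3), with all 3 libraries below all 3 of Col-0 (2) by this scaling. *MAM1* had 17, 31 and 21 reads against 26, 33 and 35 and a log2FC of -0.86 ± 0.282 (SE). *CYP83A1* (chromosome 4, 7990429 to 7992429), with 12, 16 and 9 reads against 11, 20 and 22, had a log2FC of -0.92 ± 0.368 (SE). Both were below every Col-0 (2) library after scaling, as were 9.06% of all genes with a read in either group. Neither was called. Per M reads of the sum of all lines the ratio of the 8 genes to Col-0 (2) was 0.813, against 0.64 by TMM scaling, and the groups then overlapped, at 2.38, 3.61 and 2.4 in *rsr1-2* and 2.90, 3.42 and 4.01 in Col-0 (2). The summed leaf markers were at 737 to 813 RPM in *rsr1-2* and 829 to 1134 in Col-0 (2), and their part in this was not tested.

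*fy-2* is a mutant in another 3′ end processing factor. Its *SOT18* reads were 45, 58 and 42 against 18, 30 and 33, higher in every library than in Col-0 (2), with a log2FC of 0.56 ± 0.242 (SE) that was not called. After scaling, 6.43% of all genes with a read in either group were likewise above every Col-0 (2) library. *SOT16* had 19, 30 and 22 reads against 16, 8 and 18, and the groups overlap. None of the 6 listed genes that passed the filter was called by edgeR or DESeq2 in *fy-2* (1 had an unadjusted p under 0.05), where 0.503% of the genes tested were called up and 0.703% down.

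In *ahg2-1*, *ccr4a* and *pab2 pab4* no listed gene was called by edgeR or DESeq2, nor had an unadjusted p under 0.05, out of 5, 4 and 6 genes that passed the filter. The share of all tested genes called up was 3.55, 0.462 and 1.71%, and down 5.26, 0.154 and 4.47%. *SOT18* was between 3.11 and 3.22 RPM on average in the 3 mutants and 3.68 RPM in Col-0 (2). *MAM1* had 29, 26 and 22 reads in *ahg2-1*, and was below every Col-0 (2) library after scaling, with a log2FC of -0.50 ± 0.269 (SE). Summed root markers were at 2.24 to 5.33 RPM in *ahg2-1* and 0.118 to 0.936 in Col-0 (2), with *SHV2* at 0 in both and *NRT2:1* at 0 in *ahg2-1*, and their part was not tested. In *pab2 pab4*, *MAM1* had 58, 45 and 42 reads, with a log2FC of 0.13 ± 0.226 (SE).

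**Figure D3:**
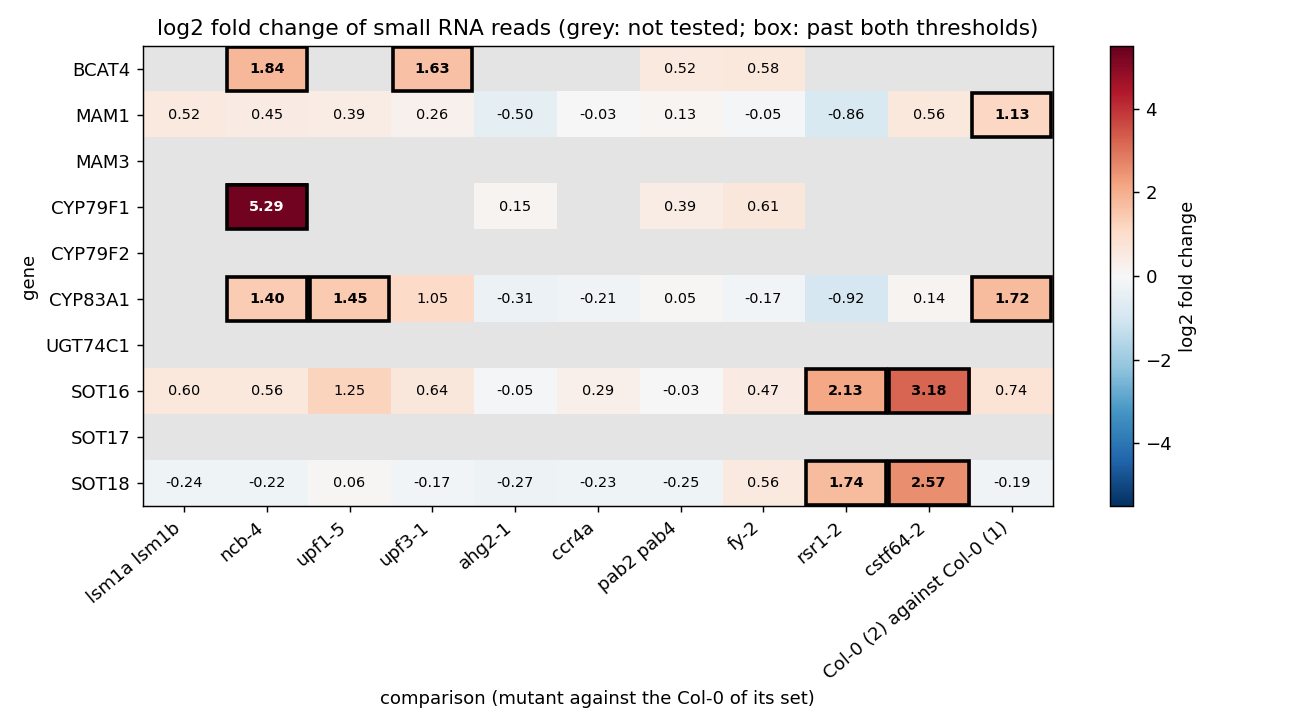
The log2FC of each gene (rows) in each comparison (columns), on a colour scale from blue (lower) to red (higher), with grey where a gene did not pass the filter and a box where it passed both thresholds. The pair *SOT16* and *SOT18* is boxed in *rsr1-2* and *cstf64-2*, and the boxes of set 1 lie in *BCAT4*, *CYP79F1* and *CYP83A1*. In the comparison of Col-0 (2) with Col-0 (1), *MAM1* and *CYP83A1* are boxed.

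In set 1 the genes called were *CYP79F1*, *BCAT4* and *CYP83A1*. *MAM1* and *SOT18* passed the filter in all 4 mutants and were called in none, with a log2FC of 0.26 to 0.52 for *MAM1* and -0.24 to 0.06 for *SOT18*, and *SOT16* reached 1.25 ± 0.483 (SE) in *upf1-5* without a call. *CYP79F1*, which makes the oximes of aliphatic glucosinolates, had 0, 0 and 1 reads in Col-0 (1). It had 30, 26 and 17 in *ncb-4*, 6, 3 and 15 in *lsm1a lsm1b*, 11, 15 and 4 in *upf1-5* and 21, 7 and 7 in *upf3-1*. All 12 mutant libraries were above all 3 of Col-0 (1). Against the single read of Col-0 (1), the summed reads of *ncb-4* gave a ratio of 52.1, with a 95% exact conditional interval from 9.06 to 2084 that covers counting error only. *UGT74C1* had 0, 0 and 1 reads in Col-0 (1) and 7, 18 and 8 in *ncb-4*. *SOT17* was at 0 in all 3 libraries of Col-0 (1) and at 6, 1 and 5 in *ncb-4*.

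Called up in *ncb-4* were *CYP79F1*, *BCAT4* and *CYP83A1*, 3 of the 6 listed genes that passed the filter, where 3.35% of all tested genes were called up and 7.27% down. *BCAT4* had 18, 13 and 11 reads against 3, 2 and 3, a log2FC of 1.84 ± 0.53 (SE). *CYP83A1* had 16, 21 and 20 against 4, 3 and 8, a log2FC of 1.40 ± 0.453 (SE). *SOT18* had 34, 33 and 40 against 34, 23 and 31, and its groups overlap. In *upf1-5* *CYP83A1* was called, with 19, 20 and 16 reads and a log2FC of 1.45 ± 0.468 (SE), 1 of 4 genes that passed, where 1.56% of the genes were called up and 3.73% down. In *upf3-1* *BCAT4* was called, with 15, 10 and 13 reads and a log2FC of 1.63 ± 0.56 (SE), 1 of 5, where 4.37% were called up and 7.77% down. None of 3 was called in *lsm1a lsm1b* by edgeR or DESeq2, nor had an unadjusted p under 0.05, where 2.2% were called up and 5.49% down. After scaling, all mutant libraries were above all of Col-0 (1) for 6 of the 10 genes in *ncb-4*, 6 in *upf3-1*, 3 in *upf1-5* and 2 in *lsm1a lsm1b*, and for no gene were they all below. Among all genes with a read in either group, the mutant libraries were all above for 9.3% in *ncb-4*, 8.87% in *upf3-1*, 7.48% in *upf1-5* and 8.51% in *lsm1a lsm1b*. Since the genes were chosen on these values, nothing is read from these counts.

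Over all 10 genes with no filter, the median log2FC was 1.68 in *ncb-4*, 1.39 in *upf1-5*, 1.38 in *upf3-1* and 0.61 in *lsm1a lsm1b*. With *SOT17* set to the bound of 3 counts in Col-0 (1) it was 1.49, 0.95, 1.04 and 0.56, and over all genes from -0.01 to 0.02. For Col-0 (2) against Col-0 (1), where no mutant is involved, the median of the 10 genes was 1.45 and that of all genes 0.03. No bound was applied there, but with *SOT17* left out the median of the remaining 9 genes was 1.30. The median of the 10 genes was between -0.28 and 0.16 in set 2 and 0.34 in *cstf64-2*, where that of all genes was 0.15. In set 2 the median of all genes was between -0.075 and -0.016.

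Col-0 (1) was low against the wild type of the other seedling set as well. Col-0 (2) had 7, 5 and 13 reads of *CYP79F1*, 5, 7 and 10 of *BCAT4* and 11, 20 and 22 of *CYP83A1*. With both sets under 1 scaling *CYP83A1* was at 0.814 ± 0.442 RPM in Col-0 (1) and 2.62 ± 0.635 in Col-0 (2), a log2FC of 1.72 ± 0.47 (SE). *MAM1* was at 2.21 ± 0.617 and 4.73 ± 0.384 RPM (SD, n = 3), a log2FC of 1.13 ± 0.321 (SE). These 2 of 4 listed genes were called higher in Col-0 (2), where 1.66% of 8840 genes were called up and 1.29% down, though with DESeq2 it was 0 and with 1 library left out 0 or 1. *SOT18* overlapped between both wild types. The mutants of set 1 and Col-0 (2) share this comparison with Col-0 (1), so they are not independent of each other. The batch and the wild type of a set cannot be told apart.

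Set against Col-0 (2), most calls of set 1 were lost. *CYP79F1* in *ncb-4* was still called, with a log2FC of 1.14 ± 0.385 (SE). *BCAT4* came to 0.53 ± 0.412 in *ncb-4* and 0.31 ± 0.426 in *upf3-1*, and *CYP83A1* turned to -0.29 ± 0.334 in *ncb-4* and -0.24 ± 0.342 in *upf1-5*. In turn, the mutants *ccr4a*, *pab2 pab4* and *fy-2* had 2, 3 and 3 genes called up against Col-0 (1), where they had 0 against Col-0 (2). In those fits against Col-0 (1), 1.93, 2.3 and 1.28% of all tested genes were called up. With DESeq2, *CYP79F1* in *ncb-4* was the only call left in set 1. Without replicate 1 or 2 of Col-0 (1) the count in *ncb-4* fell from 3 to 1, *BCAT4* in *upf3-1* was lost whichever library was left out, and *CYP83A1* in *upf1-5* was kept only when replicate 3 of Col-0 (1) was the library left out. Leaf markers summed to 713 to 757 RPM in *ncb-4* and 737 to 768 in Col-0 (1), but to 313 to 500 in *lsm1a lsm1b*, *upf1-5* and *upf3-1*, and their part was not tested.

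The 4 genes that never passed the filter had few reads throughout. *CYP79F2* (chromosome 1, 5605044 to 5607498), which makes oximes of the long-chained compounds, had 0, 1 and 2 reads in Col-0 (1) and 8, 5 and 4 in Col-0 (2). Its mutant libraries held 0 to 12 reads in set 1 and 1 to 14 in set 2, and in set 3 it had 2, 4 and 4 in *cstf64-2* against 2, 0 and 5. *MAM3* (chromosome 5, 7718118 to 7721866), which lies near *MAM1* (7703041 to 7706973) and makes longer chains, had 4, 8 and 1 reads in Col-0 (1) and 5, 8 and 5 in Col-0 (2). In *cstf64-2* it had 0, 0 and 5 against 3, 1 and 2. *SOT17* (chromosome 1, 6398531 to 6400029) had 0 to 6 reads in every library of the series, and *UGT74C1* had 0 to 18. A change of these genes was not detectable at this depth unless it was large.

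**Figure D4:**
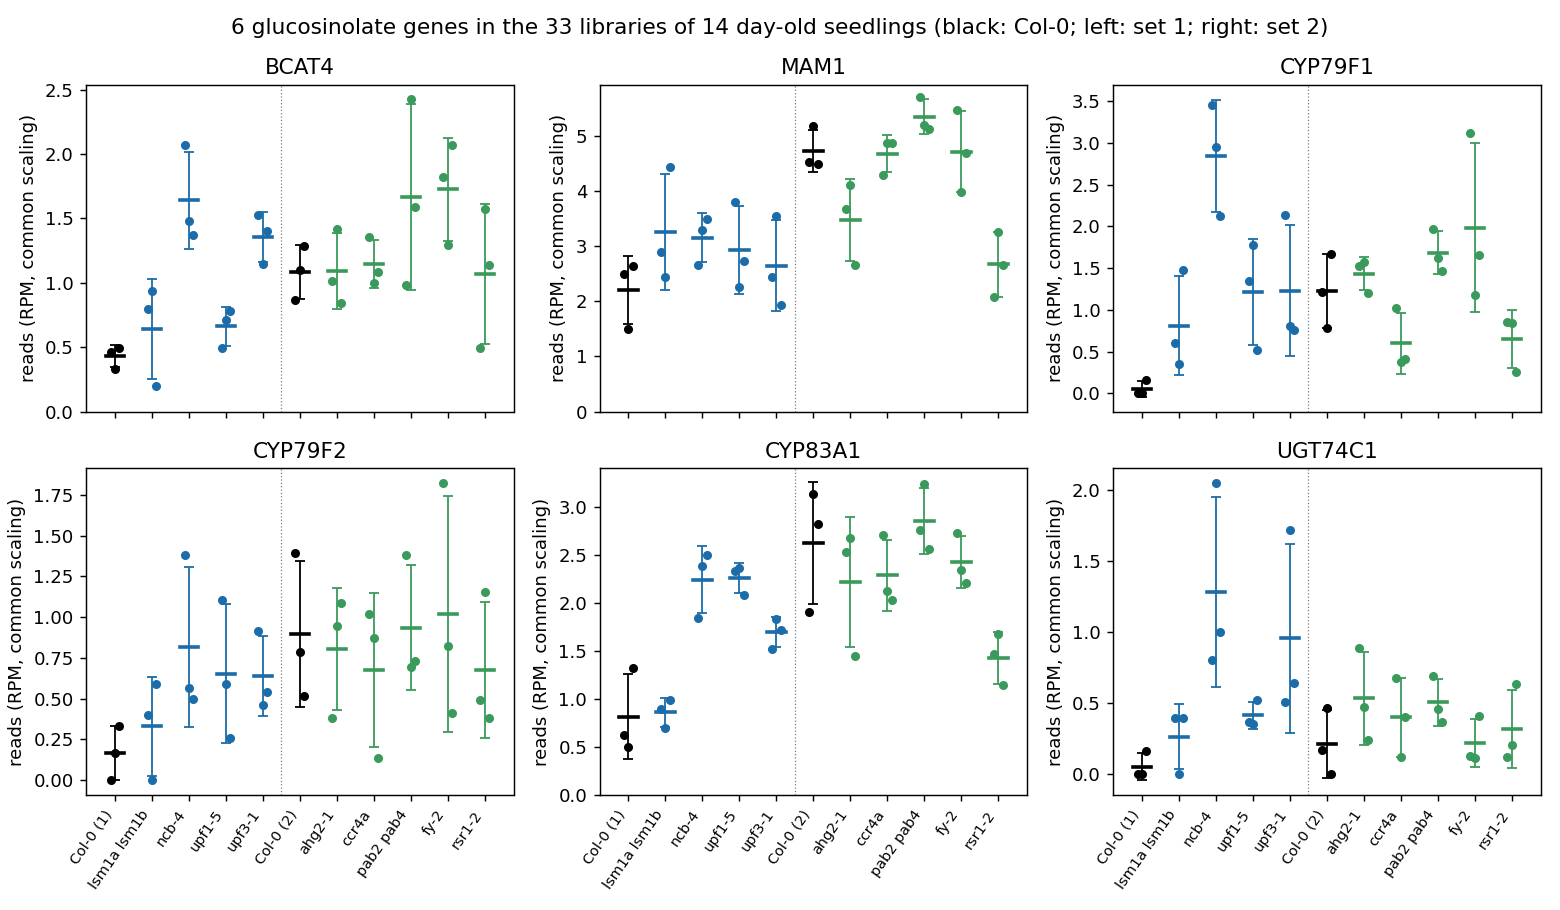
Small RNA reads of 6 genes in RPM for the 33 libraries of 14 day-old seedlings under 1 common scaling, with a line at the mean, error bars of 1 SD (n = 3) and points for the libraries. Col-0 (1), the leftmost black group, has the lowest mean in each panel, drawn for *BCAT4*, *MAM1*, *CYP79F1*, *CYP79F2*, *CYP83A1* and *UGT74C1*, with *CYP79F1* at 0 in 2 of its libraries. Of the genes not drawn, *SOT16* and *SOT17* were also lowest in Col-0 (1), but *MAM3* and *SOT18* were not. *MAM3* was at 0.707 RPM in Col-0 (1) and 0.281 in *lsm1a lsm1b*, and *SOT18* at 4.74 in Col-0 (1) and 4.02 in Col-0 (2).

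Together the 10 genes stood at 11.95 ± 2.62 RPM in Col-0 (1) and at 22.0 ± 1.23 in *ncb-4*, 19.3 ± 1.07 in *upf1-5*, 18.2 ± 1.64 in *upf3-1* and 14.3 ± 2.42 in *lsm1a lsm1b* (SD, n = 3). In *ncb-4* the ratio was 1.84 over all 10, 1.01 for *SOT16* and *SOT18* and 2.97 for the other 8. In *cstf64-2* it was 5.53 over all 10, 7.05 for the pair and 1.29 for the other 8. Scaled to the sum of all lines, the ratio over all 10 was 1.98 in *lsm1a lsm1b* in place of 1.20, 2.38 in *upf3-1* in place of 1.52, and 6.38 in *cstf64-2*.

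Of the 47 other genes of the pathway listed beside these, 12 to 20 passed the filter in a comparison. In *ncb-4*, 5 of 20 tested were called up and 1 down, where 3.35% of all tested genes were called up and 7.27% down. The ones up were *IMD1* (an isopropylmalate dehydrogenase of chain elongation), *UGT74B1* (the other glucosyltransferase of the core), *GSTU20*, *IPMI2* (a small subunit of the isomerase of chain elongation) and *CYP83B1* (which oxidizes indolic oximes). *IMD1* had 18, 24 and 14 reads against 2, 1 and 1, with a log2FC of 3.20 ± 0.583 (SE) and an adjusted p of 0.000455 by edgeR. *UGT74B1* had 15, 12 and 18 against 1, 2 and 1, with a log2FC of 2.89 ± 0.612 (SE) and an adjusted p of 0.0018 by edgeR. The transcription factor gene *MYC3* fell by 1.13 on the log2 scale. Against Col-0 (2), *UGT74B1* was still called, with a log2FC of 1.48 ± 0.465 (SE). *IMD1*, *GSTU20*, *IPMI2*, *CYP83B1* and *MYC3* were not, at 0.95, 0.35, 0.73, 0.43 and -0.63. The 3 pathway genes called in that fit thus included genes not called against Col-0 (1). In it 6.6% of all tested genes were called up and 11.7% down.

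In *upf3-1*, 4 of 16 tested were called up and 3 down, where 4.37% of all tested genes were called up and 7.77% down. *MYB28*, which codes for the main activator of the aliphatic genes, had 16, 14 and 19 reads against 2, 3 and 0, with a log2FC of 2.64 ± 0.629 (SE) and an adjusted p of 0.00229 by edgeR, and it was called against Col-0 (2) also. It had 8, 13 and 7 reads in *ncb-4* and 3, 14 and 8 in *upf1-5*. *UGT74B1*, *GSTU20* and *CYP83B1* were the others up. Against Col-0 (2) none of these was called, with a log2FC of 0.96 ± 0.493, -0.18 ± 0.483 and 0.34 ± 0.25 (SE). Those down were *ESP* (the epithiospecifier protein, which steers breakdown) with 387, 279 and 309 reads against 480, 489 and 478, *PEN2* (an atypical myrosinase) and *IGMT1* (an indole glucosinolate methyltransferase). Against Col-0 (2) *IGMT1* was called as well, but *ESP* had a log2FC of -0.21 ± 0.155 (SE) with an adjusted p of 0.305 by edgeR, and *PEN2* one of -0.80 ± 0.271 (SE), neither called. *ESP* was itself lower in Col-0 (2) than in Col-0 (1), by a log2FC of -0.92 ± 0.168 (SE). *MYB29*, a close relative of *MYB28*, had 0 to 5 reads in each of the 39 libraries. Its changes were not detectable at this depth.

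Outside set 1, the indolic gene *CYP83B1* was called up in *cstf64-2*, with 51, 37 and 38 reads against 10, 12 and 20, a log2FC of 1.34 ± 0.311 (SE) and an adjusted p of 0.00594 by edgeR. This was the only call among the 13 other pathway genes tested there, where 13.6% of all tested genes were called up and 3.3% down. *CYP83B1* was called up in *upf1-5* too, and down in *pab2 pab4* with 30, 18 and 14 reads against 19, 32 and 56. Against the Col-0 of the other seedling set neither call was kept, with a log2FC of 0.32 ± 0.261 and -0.56 ± 0.34 (SE). *TGG2*, a myrosinase gene, was called down in *rsr1-2* (10, 20 and 19 reads against 39, 42 and 30, an adjusted p of 0.00166 by edgeR) and in *fy-2* (18, 33 and 17). Both calls of *TGG2* were lost with DESeq2 and against Col-0 (1), where it was itself low, at 16, 23 and 11 reads. None was called by edgeR or DESeq2 in *lsm1a lsm1b*, *ahg2-1* and *ccr4a*, where 5, 4 and 2 had an unadjusted p under 0.05.

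Over the 33 libraries of sets 1 and 2, the genes whose reads were most like the sum of the 10 were sought among 5216 protein-coding genes with a median of at least 10 reads. The correlations are descriptions across libraries of shared batches and genotypes. The 5 highest were *CESA9* (r = 0.64, rho = 0.608), *KCS9* (r = 0.635, rho = 0.402), *ACT11* (r = 0.633, rho = 0.536), AT3G08943 (r = 0.624, rho = 0.37) and AT2G04062 (r = 0.619, rho = 0.569). Without Col-0 (1) and *rsr1-2* the r was 0.37, 0.63, 0.317, 0.335 and 0.486 over 27 libraries. AT3G08943 had 172, 191 and 157 reads in *rsr1-2* and 8, 22 and 14 in Col-0 (2), and 45, 44 and 48 in *cstf64-2* against 8, 2 and 4 in Col-0 (3), and in no other mutant was it above 30 reads. Within the list, *SOT16* had the highest r with the sum (0.759) and *MAM3* the lowest (0.181). The sum contains each of these genes, and those with more reads weigh more in it, so this order does not measure likeness.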

How the data were processed

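Small RNAs of 39 libraries were analysed as the raw counts the authors deposited, the number of reads on each of 37184 genes, with no normalization. Per the labels and the paper, adapters were removed with cutadapt 1.9, reads were mapped to TAIR10 with Bowtie 1.0.0 and counted on Araport11 exons with HTSeq 0.6.0. All lengths are together. Counting was done with or without strand, and which of these a deposited table holds is not given in the sources used here. In sets 1 and 2, 115 and 122 genes with a median of at least 20 reads had the same counts as another gene in every library, against 0 in set 3, so counting differed between sets. Genes were matched to the TAIR10.1 annotation of RefSeq by identifier (36899 of 37184).

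Differences between each mutant and its own wild type were fitted by the quasi-likelihood test of edgeR 4.0.16, run under R 4.3.3, after TMM scaling and filterByExpr. The p-values of every gene tested were adjusted by the Benjamini-Hochberg method. SE is approximate, the size of the log2FC divided by the square root of the F statistic. RPM was computed from TMM-scaled library sizes per set. The 10 genes and the lists were chosen with earlier results of these data known. The genes named are the 10 members, other pathway genes that were called, *MYB28* and *MYB29*, convergent neighbours within 400 bp, the 5 genes most like the sum (Pearson r of log2(RPM + 0.5)) and mutated genes, and AT4G13760 in a plot and AT2G08470 were added once their values had been seen. The test was checked on simulated data. Alternatives were other scalings and filters, DESeq2 1.42.0, a replicate block, joint fits, the other wild type, and each library left out. Protein identity was not analysed here. Python 3.11.15, numpy 2.4.6, pandas 2.3.3, scipy 1.17.1 and matplotlib 3.10.9 were used.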

Additional observations from a re-analysis of the deposited data

How the results depend on the processing

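The calls of *SOT18* and *SOT16* in *cstf64-2* and *rsr1-2* held under every alternative run, and leaving out single libraries kept the count of listed genes called at 2 in both. The rest rested on low counts. Causes of the changes below were not tested. Against the Col-0 of the other seedling set, the listed genes called came to 1 in *lsm1a lsm1b* (*CYP83A1*, lower), 1 in *ncb-4*, 0 in *upf1-5* and *upf3-1*, 2 in *ccr4a* and 3 in *pab2 pab4* and *fy-2*, and *CYP83A1* reversed to -0.29 in *ncb-4* and -0.24 in *upf1-5*. With DESeq2 they came to 1 in *ncb-4* and 0 in *upf1-5*, *upf3-1* and the comparison of Col-0 (2) with Col-0 (1). With the sum of all lines as library size they were 2 in *lsm1a lsm1b*, 2 in *upf1-5*, 3 in *upf3-1* and 0 between the wild types (27.3, 12, 25.8 and 0.926% of all genes were then called up), and with protein-coding reads 2 in *upf1-5* and 1 between the wild types. With no filter they were 1, 2 and 2 in *lsm1a lsm1b*, *upf1-5* and *upf3-1*, the same numbers as in a joint fit of the set, and 0 in *upf3-1* with a mean of at least 10 counts. Setting aside the sum of all lines, the comparisons with changed counts had 0.601 to 7.65% of all tested genes called up and 1.22 to 11.7% down. With 1 library left out the count ranged from 1 to 3 in *ncb-4*, 0 to 2 in *upf1-5*, 0 to 0 in *upf3-1* and 0 to 1 between the wild types. It was 0 to 0 in *lsm1a lsm1b*, *ahg2-1*, *ccr4a*, *pab2 pab4* and *fy-2*.

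Of the other pathway genes, those called with the sum of all lines were 13 in *ncb-4*, 6 in *upf1-5*, 2 in *pab2 pab4*, 1 in *lsm1a lsm1b* and 0 in *fy-2*. Of all tested genes 21, 12, 11.2, 27.3 and 1.82% were then called up, and 2.51, 1.41, 0.914, 0.419 and 0.273% down. For the comparisons named under the further settings below, left-out libraries aside, the shares were 0.218 to 7.65% up and 0.26 to 11.7% down. With protein-coding reads they were 2 in *upf1-5* and *pab2 pab4* and 0 in *fy-2*, and with no filter 3 in *upf1-5*, 2 in *pab2 pab4*, 0 in *fy-2* and 2 between the wild types. In the joint fit they were 2 in *lsm1a lsm1b* and *upf1-5* and 0 in *fy-2*, and with a mean of at least 10 counts 3 in *ncb-4* and 4 in *upf3-1*. With DESeq2 they were 4 in *upf3-1* and 0 in *fy-2*, *rsr1-2* and between the wild types. Against the other Col-0 they were 3 in *ncb-4*, *upf1-5* and *upf3-1*, 1 in *lsm1a lsm1b* and *ccr4a*, 2 in *pab2 pab4* and 0 in *fy-2* and *rsr1-2*. With 1 library left out they ranged from 0 to 2 in *lsm1a lsm1b*, 4 to 7 in *ncb-4*, 0 to 2 in *upf1-5*, 4 to 6 in *upf3-1*, 0 to 1 in *ahg2-1*, *ccr4a*, *fy-2* and between the wild types, 1 to 2 in *pab2 pab4* and *rsr1-2* and 1 to 1 in *cstf64-2*.

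The sum of all lines as library size moved the median of the tested genes by up to 0.72 on the log2 scale, in *lsm1a lsm1b*, where 210 genes called up and 525 down became 2603 and 40, and the change in *SOT18* in *ncb-4* went from -0.22 to 0.36, not called in either.

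In no mutant did the deviations of same-numbered libraries correlate over 0.1 in all 3 pairs. The mean correlation ran from -0.07 to 0.15, so the numbers were not used as pairs. The highest mean was in *cstf64-2*, with correlations of 0.0006, 0.18 and 0.26. In *ncb-4* alone each library was most like that of its own number. With the replicate block, the listed genes called were 0 in *upf1-5*, *upf3-1* and between the wild types, and elsewhere the same number as without it. The other pathway genes called went from 6 to 7 in *ncb-4* and in the rest kept their number.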
